A study of Mus musculus with 18 samples.

Results

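Messenger RNA of 10 acute phase genes was followed in mouse liver: the serum amyloid A genes Saa1, Saa2, Saa3 and Saa4, the orosomucoid genes Orm1, Orm2 and Orm3, Lcn2 (lipocalin 2), Hp (haptoglobin) and Itih4 (inter-alpha-trypsin inhibitor heavy chain 4). The genes were chosen by name as a set, with earlier results of these data known. Every probe set whose platform annotation gave exactly 1 of these symbols and no other was taken. This gave 12 of the 45101 probe sets on the array, or 10 of 18193 annotated genes, and all 10 genes passed the filter on dim probe sets, as did 13221 genes in all. Saa1 and Saa4 had 2 probe sets each, and the brighter of the pair, by mean over all arrays, stands for the gene unless the other is named.

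All mice were wildtype CD1, an outbred stock from Charles River; their sex and age are not given in the labels. CMPF is a furan fatty acid metabolite found in plasma. In the prevention model, mice received 6 mg/kg/day CMPF or vehicle for 1 week and then a high-fat diet (HFD, 60% of kcal from fat) for 4 to 5 weeks. In the reversal model, mice ate the HFD for 6 weeks and were then injected with the same dose of CMPF or with vehicle for 2 weeks. Each model also had a chow control group, for which the labels do not say whether vehicle was given. There were thus 6 groups of 3 arrays, called here CMPF livers (HFD with CMPF), HFD livers (HFD with vehicle) and chow livers. Values are log2 signals of single probe sets, and a difference of 1 is a 2-fold difference. Levels are compared within a model only, since the array means were 5.08 to 5.101 in prevention and 5.25 to 5.26 in reversal.

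The acute phase response is the change in secreted liver proteins that follows infection, injury or inflammation. Interleukin 6, acting through STAT3, and interleukin 1, acting through NF-kB, are its main signals to hepatocytes, and C/EBP factors take part at many of the target promoters. Serum amyloid A proteins travel on high-density lipoprotein. Saa1 and Saa2 are the strongly inducible liver forms in mouse, Saa3 is also made by macrophages and adipocytes, and Saa4 is the constitutive form. Orosomucoids are acid glycoproteins that bind lipids and drugs. Lipocalin 2 binds bacterial siderophores and is made by hepatocytes and neutrophils, haptoglobin captures free haemoglobin, and Itih4 is a plasma glycoprotein of the inter-alpha-trypsin inhibitor family.

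The serum amyloid genes lie together on chromosome 7 in the order Saa3, Saa4, Saa1, Saa2, with a predicted gene between the first pair and a pseudogene between Saa4 and Saa1. On chromosome 4 the order was Orm1, Orm3, Orm2. Lcn2, Hp and Itih4 lie on chromosomes 2, 8 and 14. Promoters of 8 of the 10 genes were matched in RefSeq (GRCm38.p6); Orm1 and Hp were not among them. The 250 bases before the start site are printed for the 6 genes on which the comparisons below turn most. Each is on the strand of its gene, and capitals mark matches to TTGCNNAA (a C/EBP motif), to GG, any 3 bases and TTTCC (NF-kB) or to TTCNNNGAA (STAT), searched on both strands.
Saa1 (chr7:46742981-46743230, minus strand): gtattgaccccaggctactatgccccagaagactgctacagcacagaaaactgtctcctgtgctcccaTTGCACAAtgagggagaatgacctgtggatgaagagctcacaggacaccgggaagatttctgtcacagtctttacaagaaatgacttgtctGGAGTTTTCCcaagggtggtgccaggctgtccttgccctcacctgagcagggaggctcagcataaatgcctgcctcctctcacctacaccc
Saa2 (chr7:46751583-46751832, plus strand): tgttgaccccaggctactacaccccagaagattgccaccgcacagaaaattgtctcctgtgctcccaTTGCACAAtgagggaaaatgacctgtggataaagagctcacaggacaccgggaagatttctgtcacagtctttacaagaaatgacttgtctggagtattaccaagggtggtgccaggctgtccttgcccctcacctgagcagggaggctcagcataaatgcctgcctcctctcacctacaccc
Saa4 (chr7:46732604-46732853, minus strand): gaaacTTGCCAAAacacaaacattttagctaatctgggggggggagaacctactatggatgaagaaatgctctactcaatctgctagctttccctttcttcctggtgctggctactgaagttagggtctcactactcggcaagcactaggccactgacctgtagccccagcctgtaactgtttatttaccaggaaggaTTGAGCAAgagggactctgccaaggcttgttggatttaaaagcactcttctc
Orm2 (chr4:63362199-63362448, plus strand): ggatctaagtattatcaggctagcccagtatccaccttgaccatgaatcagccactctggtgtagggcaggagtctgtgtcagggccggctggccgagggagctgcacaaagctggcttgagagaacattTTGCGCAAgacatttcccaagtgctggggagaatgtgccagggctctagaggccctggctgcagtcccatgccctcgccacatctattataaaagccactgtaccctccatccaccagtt
Lcn2 (chr2:32387740-32387989, minus strand): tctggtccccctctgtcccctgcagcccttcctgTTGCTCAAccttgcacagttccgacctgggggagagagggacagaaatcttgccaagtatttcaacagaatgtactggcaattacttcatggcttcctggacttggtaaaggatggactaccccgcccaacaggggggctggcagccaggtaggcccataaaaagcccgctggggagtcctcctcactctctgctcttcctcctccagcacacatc
Itih4 (chr14:30886226-30886475, plus strand): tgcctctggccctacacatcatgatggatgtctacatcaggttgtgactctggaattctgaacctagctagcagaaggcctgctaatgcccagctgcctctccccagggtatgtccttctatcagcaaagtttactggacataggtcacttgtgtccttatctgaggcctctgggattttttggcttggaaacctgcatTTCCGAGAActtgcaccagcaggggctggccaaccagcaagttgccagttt

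The C/EBP letters occurred in 7 of the 8 windows, all but that of Itih4, against 9.56% of 32851 mouse promoter windows of the same length. The NF-kB letters occurred in Saa1 alone of the 8 (4.63% of all windows) and the STAT letters in Itih4 alone (7.02%). These motif letters were chosen after the sequences had been read, so the counts are a description of these windows and show no binding. Saa1 and Saa2 were identical at 238 of 249 aligned promoter bases (95.6%), and Orm2 and Orm3 at 218 of 245 (89.0%). The NF-kB letters of Saa1 begin 91 bases before the start, where the Saa2 window holds no match.

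Close relatives limit what a probe set can tell apart. The second Saa1 probe set is annotated to Saa1, but its accession belongs to Saa2 in RefSeq, and the suffix _s_at, like the _x_at of the Saa2 probe set, marks probes that can bind related transcripts. Signals of Saa1 and Saa2 are therefore uncertain apart from each other. Replicates 2 and 3 of the prevention CMPF group differed less than any other pair of arrays: no gene of 13221 differed over 2-fold between them, against at least 115 in every other pair. Their mean entered every test as a single sample, leaving n = 2 for prevention CMPF. Hepatocyte markers were high throughout (Alb 14.38 to 14.69, Ttr 14.10 to 14.46), as the liver label states. The labels do not say whether arrays of a group come from separate animals, so each p refers to the spread between these arrays. In the main limma fit that spread was estimated once per gene over all 6 groups. A p in either model therefore also depends on the arrays of the other model. In whole liver, fewer cells of a type and less RNA per cell cannot be told apart.

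The reversal model gave the widest separation of diets. Saa1 read 14.04, 13.26 and 13.47 in CMPF livers, 12.73, 13.72 and 11.34 in HFD livers, and 9.60, 8.55 and 9.78 in chow livers. Every array on HFD, with or without CMPF, lay above every chow array. Saa1 rose with CMPF on HFD by 4.28 ± 0.73 (difference in log2 signal ± SE, adjusted p = 0.0109, limma), a 19.4-fold difference from chow. With HFD and vehicle it rose by 3.28 ± 0.73 over chow (adjusted p = 0.0331). Both comparisons use the same 3 chow arrays. The second Saa1 probe set differed by 4.38 ± 0.79 with CMPF on HFD (adjusted p = 0.0175) and by 3.32 ± 0.79 with HFD (0.0527) in a fit of 22626 probe sets.

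Saa2 read 13.83, 11.58 and 11.52 in CMPF livers, 11.11, 12.60 and 8.69 in HFD livers, and 7.32, 6.30 and 7.17 in chow livers. The groups on HFD again did not overlap with chow, and HFD replicate 3 was the lowest of the 6 arrays on HFD. Saa2 rose by 5.38 ± 1.01 in CMPF livers against chow (adjusted p = 0.0164), 41.5-fold. In HFD livers the difference from chow was 3.87 ± 1.01 and did not pass (adjusted p = 0.0593).

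Saa4, the constitutive form, moved less but more evenly in its brighter probe set. It read 12.90, 13.31 and 13.26 in CMPF livers, 12.77, 13.22 and 13.04 in HFD livers, and 11.95, 11.67 and 12.22 in chow livers. The lowest array on HFD was above the highest chow array. Saa4 rose by 1.21 ± 0.18 in CMPF livers (2.32-fold, adjusted p = 0.00517) and by 1.06 ± 0.18 in HFD livers (2.09-fold, adjusted p = 0.0121) against chow. The dimmer probe set differed more, by 2.51 ± 0.57 in CMPF livers (adjusted p = 0.0491) and 2.39 ± 0.57 in HFD livers (0.0551), in limma over 22626 probe sets. Saa3 read 8.49, 8.20 and 9.54 in CMPF livers, 10.33, 8.81 and 7.49 in HFD livers, and 8.17, 6.77 and 7.68 in chow livers. HFD replicate 3 lay among the chow arrays. Saa3 was 1.20 ± 0.75 above chow in CMPF livers (adjusted p = 0.412) and 1.34 ± 0.75 above chow in HFD livers (0.296), and passed in neither.

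Among the orosomucoids, Orm2 had the widest range. It read 11.43, 9.25 and 8.54 in CMPF livers, 9.88, 9.36 and 8.07 in HFD livers, and 5.74, 5.02 and 5.21 in chow livers. CMPF replicate 1 was far above the other arrays of its group, and no array on HFD reached down to chow. The chow signals of Orm2 were dim, near the chow array means of 5.25 to 5.26, so its fold is over a dim signal. Orm2 rose by 4.41 ± 0.86 in CMPF livers (21.3-fold, adjusted p = 0.0190) and by 3.78 ± 0.86 in HFD livers (adjusted p = 0.0356) against chow. Orm1 read 13.47, 12.99 and 12.88 in CMPF livers, 12.48, 13.05 and 12.45 in HFD livers, and 11.86, 11.37 and 11.69 in chow livers, without overlap with chow. It rose by 1.47 ± 0.35 in CMPF livers (2.78-fold, adjusted p = 0.0445), and was 1.02 ± 0.35 above chow in HFD livers (0.119). Orm3 read 6.70, 7.18 and 6.68 in CMPF livers, 5.86, 7.41 and 5.52 in HFD livers, and 5.08, 5.63 and 4.92 in chow livers. HFD replicate 3 of Orm3 fell below the highest chow array. Its differences from chow, 1.64 ± 0.43 with CMPF on HFD (adjusted p = 0.0673) and 1.06 ± 0.43 with HFD (0.176), did not pass.

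Lcn2 read 10.95, 9.55 and 9.62 in CMPF livers, 10.23, 10.56 and 6.88 in HFD livers, and 4.63, 4.56 and 4.53 in chow livers. HFD livers spanned 3.68, while the chow arrays spanned 0.10. All chow signals of Lcn2 lay below the chow array means of 5.25 to 5.26. The narrow chow span and the fold over chow are thus those of a dim signal. Lcn2 rose by 5.46 ± 1.18 in CMPF livers against chow (44.0-fold, adjusted p = 0.0313), and its difference of 4.65 ± 1.18 in HFD livers did not pass (0.0539). Itih4 read 13.91, 13.82 and 13.62 in CMPF livers, 13.27, 13.72 and 13.31 in HFD livers, and 13.09, 12.38 and 13.14 in chow livers. Every array on HFD lay above every chow array, CMPF and HFD livers overlapped, and chow replicate 2 was the lowest array. Itih4 rose by 0.91 ± 0.20 in CMPF livers (1.88-fold, adjusted p = 0.0296), and was 0.57 ± 0.20 above chow in HFD livers (0.122). Hp read 14.29, 14.21 and 14.02 in CMPF livers, 14.03, 14.19 and 13.92 in HFD livers, and 13.91, 13.59 and 13.83 in chow livers. Its differences from chow were 0.39 ± 0.11 with CMPF on HFD (adjusted p = 0.0862) and 0.27 ± 0.11 with HFD (0.182).

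**Figure D1:**
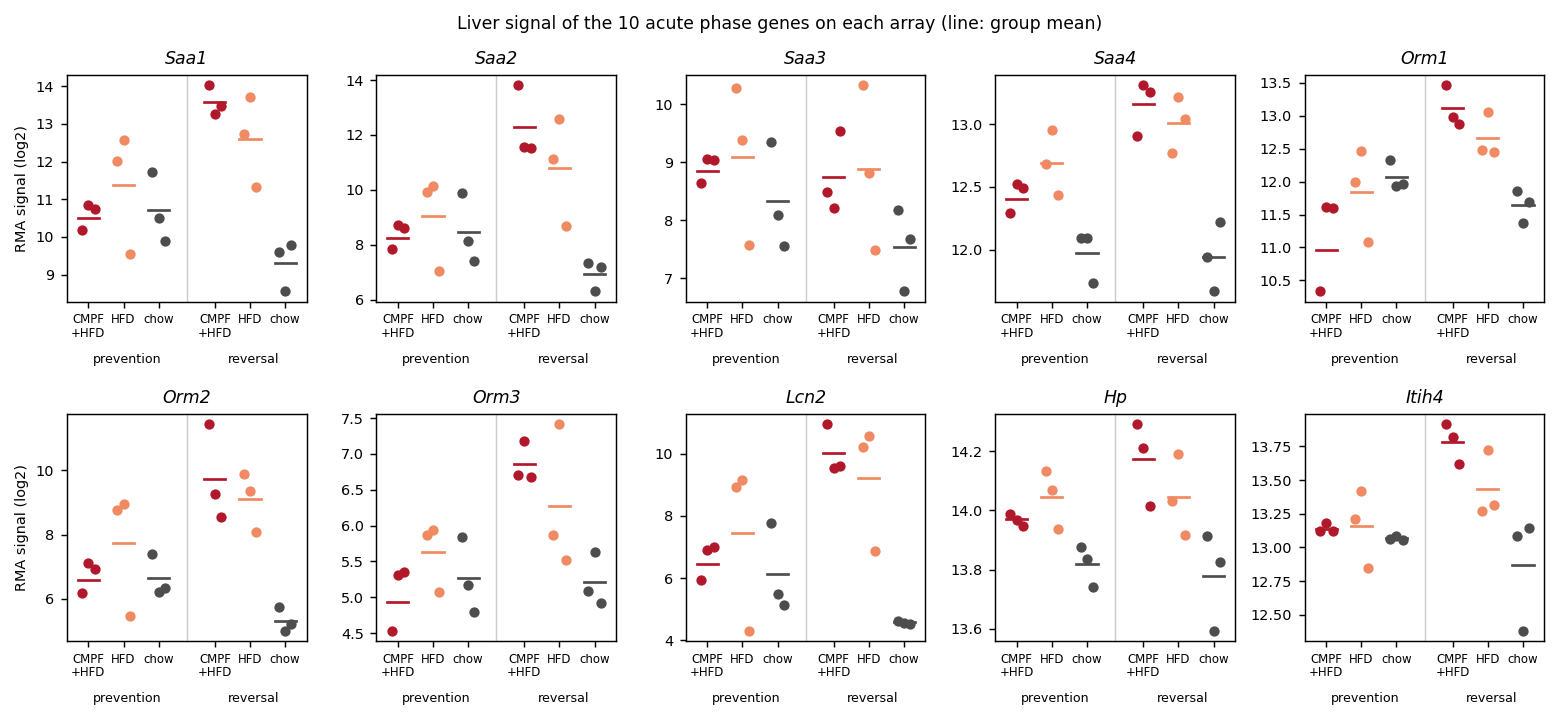
Log2 signal (vertical axis) of each of the 10 genes on every array, with the groups of both models on the horizontal axis; points are arrays and lines group means, with replicates 2 and 3 of prevention CMPF counted as 1 sample. In reversal, the CMPF arrays lie above all chow arrays for each gene, while in prevention the groups overlap for most genes.

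In all, 7 of the 10 genes rose in CMPF livers on HFD against chow in reversal and none fell, against 1.61% of 13221 genes called higher in that comparison. All 10 had groups without overlap, higher in CMPF livers, as did 10.8% of genes. With HFD and vehicle, 3 of 10 rose (Saa1, Saa4 and Orm2), against 2.17% of genes, and 8 of 10 lay wholly above chow, against 14.7%. The median difference of the 10 genes was 1.56 with CMPF on HFD (median of all genes 0.03) and 1.20 with HFD (0.03). The genes were not independent of each other, as the array order below shows. They were also chosen with earlier results of these data known, so the counts are a description and no independent support.

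Several of these calls rested on single arrays. Against chow, the CMPF livers had 7 calls, which became 2 (Saa1 and Saa4) without reversal chow replicate 2 or without CMPF replicate 1, and 4 (Saa1, Saa2, Saa4 and Orm2) without CMPF replicate 2 or without CMPF replicate 3. Reversal chow replicate 2 was the lowest of its group for 8 of the 10 genes and had the lowest median correlation with the other arrays of its model (0.948); CMPF replicate 1 was the highest of its group for 7. Lcn2 lost its call when any one of the reversal chow or CMPF arrays was left out (adjusted p 0.0501 to 0.116), and Orm1 lost its call in 19 of 31 alternatives. For HFD against chow, the count was 1 (Saa4) without reversal chow replicate 2 or 3 or without HFD replicate 1 or 2, and 5 without prevention HFD replicate 3. It was 0 when the fit held only the arrays of the reversal model, where Saa1 and Saa4 had an adjusted p of 0.0599 each and Orm2 of 0.0723. Over its 31 alternatives the adjusted p for HFD ranged from 0.0134 to 0.152 for Saa1, from 0.00652 to 0.146 for Saa4 and from 0.0117 to 0.134 for Orm2.

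In the prevention model, Saa4 was the single gene of the 10 that passed for HFD against chow. It read 12.29, 12.52 and 12.49 in CMPF livers, 12.68, 12.96 and 12.43 in HFD livers, and 12.10, 12.10 and 11.74 in chow livers. All arrays on HFD lay above all chow arrays. In this brighter probe set Saa4 rose by 0.71 ± 0.18 in HFD livers (1.64-fold, adjusted p = 0.0394). Thus 1 of 10 genes rose and none fell, against 1.74% of genes called higher. The dimmer Saa4 probe set differed the other way, by -1.08 ± 0.57 (adjusted p = 0.247 in limma over 22626 probe sets). With both probe sets averaged, Saa4 was at -0.18 (adjusted p = 0.768 in limma). Hp and Saa4 were the 2 genes whose HFD arrays all lay above chow, against 12% of genes. A log2 ratio of the 3' to the 5' signal of the array's control probes, called the 3' to 5' index, was 2.84 ± 0.303 in HFD livers and 1.43 ± 0.512 in chow livers (SD, n = 3 each). With this index as a covariate Saa4 was at 0.57 (adjusted p = 0.316). The call was also lost without chow replicate 1 (adjusted p = 0.115) or 3 (0.177), without HFD replicate 1 (0.102) or 2 (0.119), without CMPF replicate 1 (0.0524) and without reversal HFD replicate 3 (0.0503); over all 31 alternatives the adjusted p ran from 0.0156 to 0.768.

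The inducible genes varied widely between arrays of the same prevention group. Saa1 read 10.19, 10.85 and 10.74 in CMPF livers, 12.02, 12.56 and 9.55 in HFD livers, and 11.73, 10.49 and 9.89 in chow livers. HFD replicate 3 was below every chow array. The HFD livers were 0.68 ± 0.73 above chow (adjusted p = 0.611). Orm2 read 6.18, 7.12 and 6.94 in CMPF livers, 8.75, 8.96 and 5.48 in HFD livers, and 7.40, 6.22 and 6.33 in chow livers, a difference of 1.08 ± 0.86 for HFD against chow (adjusted p = 0.471). Lcn2 read 5.95, 6.89 and 6.998 in CMPF livers, 8.92, 9.15 and 4.31 in HFD livers, and 7.77, 5.47 and 5.13 in chow livers. Its HFD livers differed from each other by up to 4.84, or 28.7-fold, and from chow by 1.34 ± 1.18 on average (adjusted p = 0.520).

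Orm1 was the 1 gene with a lower mean in HFD livers than in chow livers. It read 10.33, 11.61 and 11.60 in CMPF livers, 11.997, 12.46 and 11.09 in HFD livers, and 12.32, 11.94 and 11.96 in chow livers. All CMPF arrays were below all chow arrays, but with n = 2 against 3 the difference of -1.11 ± 0.39 did not pass (adjusted p = 0.399; unadjusted p = 0.0127). Of the other genes, differences of HFD from chow were 0.57 ± 1.01 for Saa2, 0.75 ± 0.75 for Saa3, 0.35 ± 0.43 for Orm3, 0.23 ± 0.11 for Hp and 0.09 ± 0.20 for Itih4. Their adjusted p ranged from 0.220 to 0.815. For CMPF on HFD against chow in prevention, 0 of 10 genes passed in limma, as did 0% of all genes, and 1 of 10 (Orm1) had an unadjusted p under 0.05, as did 9.99% of all genes. The groups did not overlap for 4 of 10 genes (Saa4, Hp and Itih4 higher, Orm1 lower), against 31.7% of genes in either direction, a share that the n of 2 raises. The second, dimmer Saa4 probe set went the other way. Its CMPF arrays lay below all chow arrays, at -1.21 ± 0.64 (adjusted p = 0.489 in limma over 22626 probe sets).

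**Figure D2:**
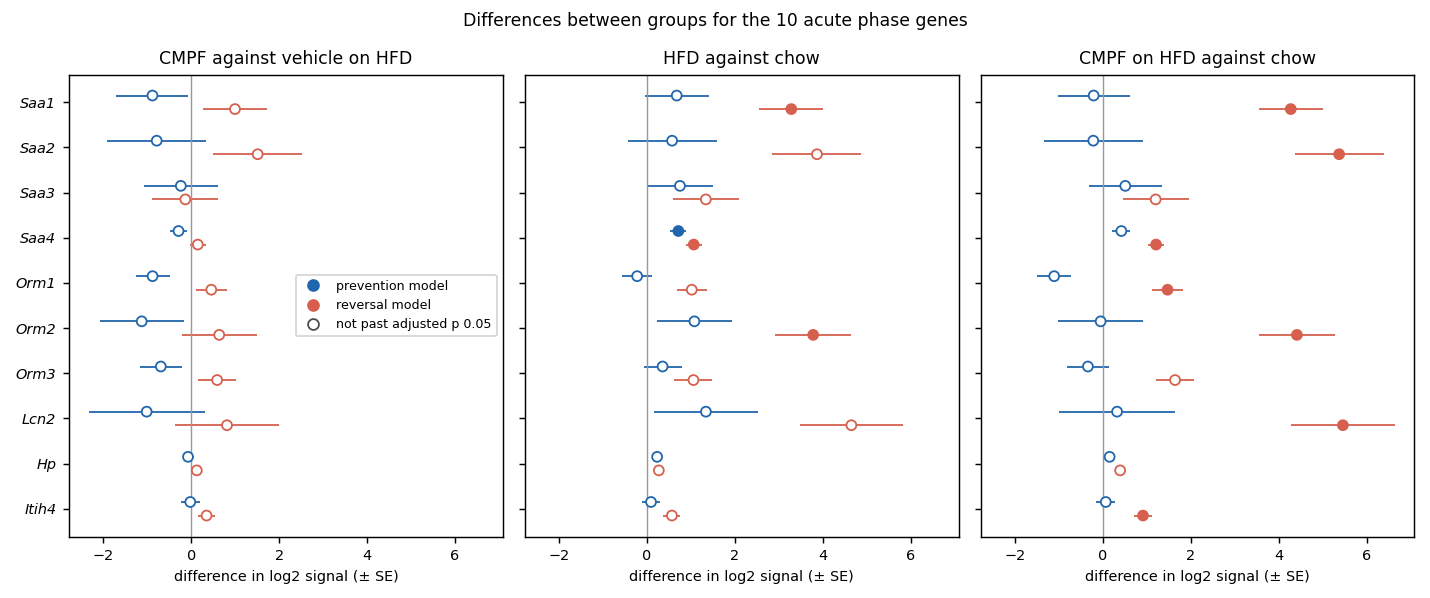
Differences in log2 signal with their SE (horizontal axis) for the 10 genes (vertical axis) in the 3 comparisons, with the prevention and reversal models in 2 colours; filled points passed an adjusted p of 0.05. For CMPF against vehicle every point is open, the prevention points lie below 0, and all reversal points but that of Saa3 lie above 0.

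CMPF livers were also compared with HFD livers given vehicle, and 0 of the 10 genes passed in either model. In prevention, 0 of 10 were called by limma, as were 0% of all genes, and 1 of 10 (Orm1) had an unadjusted p under 0.05, as did 8.02% of all genes. In reversal, 0 of 10 were called, against 0.0378% of genes, and 0 of 10 had an unadjusted p under 0.05, against 4.8% of genes. No gene of the 10 had groups without overlap in either model, against 30.7% of genes in prevention, where CMPF counts 2 samples, and 8.83% in reversal. None of the 31 alternatives of either model gave a call.

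The signs of the differences were not the same in the models. In prevention the mean of CMPF livers was below that of HFD livers for 10 of 10 genes, with a median difference of -0.74 (median of all genes 0.02). The differences were -0.88 ± 0.82 for Saa1, -1.13 ± 0.96 for Orm2, -1.01 ± 1.32 for Lcn2 and -0.88 ± 0.39 for Orm1 (adjusted p 0.615 to 0.909). The CMPF arrays lay between HFD replicate 3, which was lowest in its group for all 10 genes, and the other HFD arrays for 7 of 10 genes, all but Saa4, Orm1 and Orm3. In the same comparison 0 of 10 Kupffer cell and macrophage markers (median -0.53) and 0 of 7 neutrophil markers (median -0.10) had a higher mean in CMPF livers, and their part in the differences was not tested. In reversal the mean of CMPF livers was above that of HFD livers for 9 of 10 genes, with a median of 0.52 (all genes -0.01). Examples were 0.99 ± 0.73 for Saa1, 1.51 ± 1.01 for Saa2, 0.35 ± 0.20 for Itih4 and 0.46 ± 0.35 for Orm1 (adjusted p = 1.00 for all), while Saa3 was at -0.14 ± 0.75. The difference of the CMPF effects, reversal minus prevention, was positive for 10 of 10 genes and passed for 0 (0% of all genes). Its size was 1.34 ± 0.52 for Orm1 (adjusted p = 0.568) and 1.88 ± 1.098 for Saa1 (0.719). An unadjusted p under 0.05 was found for 1 of 10 genes (Orm1) and for 7.93% of all genes. Both effects of a model share its HFD arrays with the comparison to chow.

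The estimated HFD effect was larger in reversal than in prevention for all 10 genes, but 0 of 10 passed the test of that difference, against 8.84% of genes called higher there. Reversal minus prevention was 2.61 ± 1.04 for Saa1 (adjusted p = 0.107), 2.70 ± 1.21 for Orm2 (0.147), 3.31 ± 1.67 for Lcn2 (0.192) and 1.24 ± 0.49 for Orm1 (0.105). For Saa4 it was 0.35 ± 0.26 (adjusted p = 0.369). For Hp it was 0.04 ± 0.16 (0.893) and for Saa3 0.59 ± 1.06 (0.740), and each had the other sign in 4 of 29 alternatives. With the 3' to 5' index as a covariate, Saa3 was at -1.14 ± 1.09 (adjusted p = 0.678 in limma over 22626 probe sets). An unadjusted p under 0.05 was found for 4 of the 10 genes and for 31% of all genes. Averaged over both models, the HFD effect passed for 1 of 10 genes, Saa4, at 0.89 ± 0.13 (1.85-fold, adjusted p = 0.00409), against 1.37% of genes. The second, dimmer Saa4 probe set was at 0.65 ± 0.41 and did not pass (adjusted p = 0.502 in limma over 22626 probe sets). An exact two-sided permutation test that exchanged arrays of HFD and chow within each model gave p = 0.005 for Saa4 and for Hp (mean effect 0.25), the smallest that 400 arrangements allow. For the wider-ranging genes the exact test gave p = 0.02 for Orm2 (2.43), 0.04 for Lcn2 (2.99), 0.045 for Saa1 (1.98) and 0.055 for Saa2 (2.22), and none of these 4 passed limma's adjusted p over all genes (0.0621 to 0.145). These exact p are of single genes and were not adjusted over the 10. The averaged CMPF effect passed for 0 of 10 genes (0% of all genes), with 0 of 10 at an unadjusted p under 0.05, against 5.2% of genes.

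Array by array, the genes moved together within groups. In prevention, HFD replicate 3 was the lowest HFD array for 10 of 10 genes, and chow replicate 1 the highest chow array for 9 of 10. CMPF replicate 1 was the lowest CMPF array for 9 of 10. Replicates 2 and 3 of that group were nearly identical, so replicate 1 could hardly rank between them and its count rests on n = 2. In reversal, HFD replicate 2 was the highest of its group for 8 of 10 genes and HFD replicate 3 the lowest for 8 of 10. The spread between arrays of a group was large for the inducible genes. The residual SD was 1.63 for Lcn2, 1.40 for Saa2, 1.18 for Orm2, 1.03 for Saa3 and 1.01 for Saa1, each above that of more than 99% of genes (median SD 0.20). It was 0.23 for Saa4, above 61.2% of genes, and 0.12 for Hp, above 13.8%. Leaving out prevention HFD replicate 3 raised the count for the averaged HFD effect to 4 of 10 genes, with Saa1 at 2.44 (adjusted p = 0.0125), Orm2 at 2.99 (0.00771) and Lcn2 at 3.78 (0.0111) beside Saa4. That array was singled out after seeing that it was lowest for these same genes, so the added calls give no support. With each of the 18 arrays left out in turn, the count ran from 1 to 4.

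**Figure D3:**
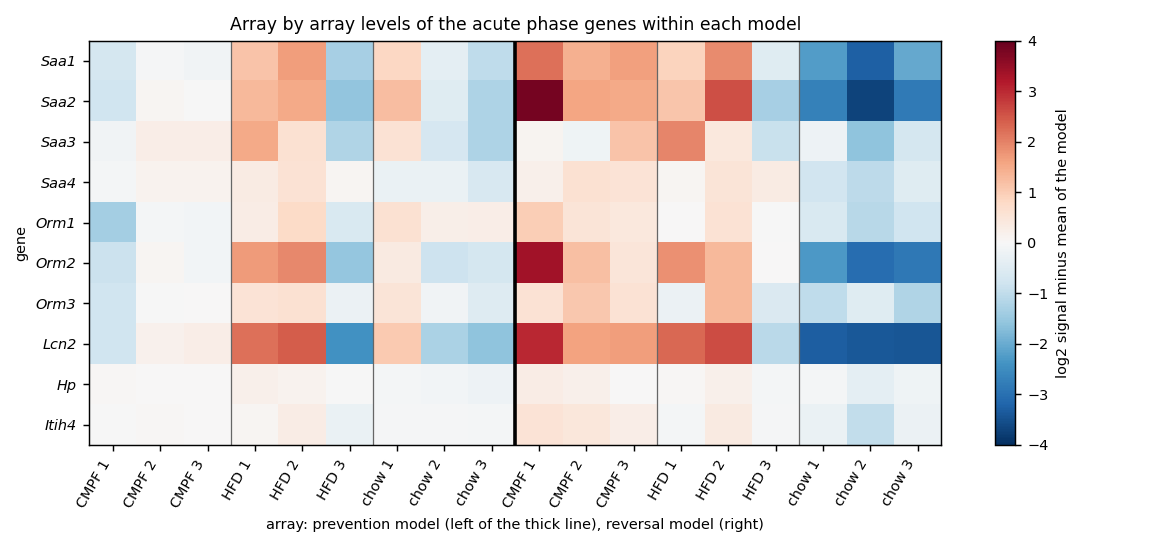
Log2 signal minus the mean of the 9 arrays of the same model (colour) for the 10 genes (rows) on the 18 arrays (columns), with prevention left and reversal right of the thick line. Columns tend to be of 1 colour: prevention HFD replicate 3 is mostly blue beside mostly red HFD replicates 1 and 2, and the reversal chow arrays are blue, palest for Hp and Itih4.

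The 2 probe sets of Saa4 differed in the prevention model. The dimmer one read 7.14, 7.87 and 7.77 in prevention CMPF livers, 7.40, 8.45 and 6.97 in HFD livers, and 9.26, 7.94 and 8.86 in chow livers. In reversal it read 8.60, 7.81 and 9.90 in CMPF livers, 9.45, 8.33 and 8.15 in HFD livers, and 6.87, 5.34 and 6.56 in chow livers. HFD livers were thus 1.08 ± 0.57 below chow in prevention (adjusted p = 0.247 in the fit of all probe sets) and 2.39 ± 0.57 above chow in reversal (0.0551), and these effects differed by 3.46 ± 0.81 (adjusted p = 0.0245). The brighter probe set rose with HFD in both models. In each model the 2 arrays with the lowest 3' to 5' index were the 2 with the highest signal of the dimmer probe set: chow replicates 1 and 3 in prevention, and CMPF replicate 3 and HFD replicate 1 in reversal. With the index as a covariate the difference between models of the dimmer probe set was 1.66 ± 0.62 and did not pass (adjusted p = 0.2998). Its differences from chow in reversal passed with the index, at 1.89 ± 0.37 with HFD (adjusted p = 0.0206) and 2.03 ± 0.37 with CMPF on HFD (0.0161). Without the index, CMPF on HFD was at 2.51 ± 0.57 in reversal (0.0491). In prevention HFD was at 0.24 ± 0.44 with the index (0.899). With the mean of both probe sets, Saa4 differed from chow by -0.18 with HFD in prevention (adjusted p = 0.768).

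**Figure D4:**
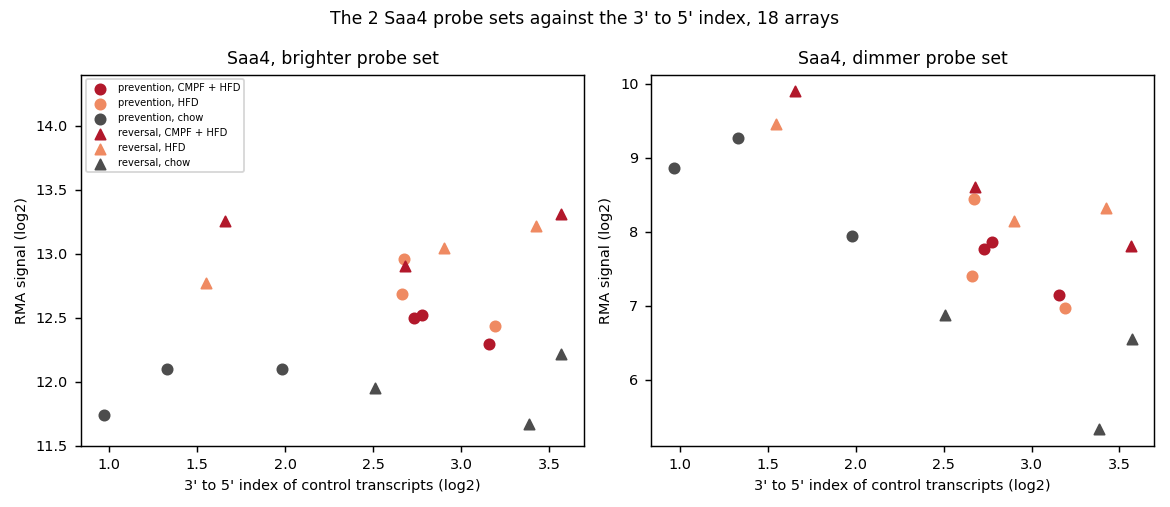
Log2 signal (vertical axes) of the brighter (left) and the dimmer (right) Saa4 probe set on the 18 arrays against the log2 3' to 5' index (horizontal axes), with colour for the diet group and symbol for the model. In the right panel the 2 arrays of lowest index have the highest signals of each model; in the left panel the arrays on HFD start at 12.29 against chow arrays of at most 12.10 in prevention, and at 12.77 against chow arrays of at most 12.22 in reversal.

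Other genes of the response were described from lists. Of 26 other positive acute phase proteins, 22 were tested. In reversal with HFD, 2 of 22 rose, against 2.17% of all genes, and none fell. They were Cfb, complement factor B (0.69 ± 0.16, adjusted p = 0.0383), and Mbl2, a mannose-binding lectin (0.81 ± 0.19, 0.0386). With CMPF on HFD against chow in reversal, 1 of 22 rose, against 1.61% of all genes: the fibrinogen-like Fgl1 (1.36 ± 0.31, adjusted p = 0.0415). The median of the 22 was 0.45 with CMPF on HFD and 0.42 with HFD, against medians of 1.56 and 1.20 for the 10 genes and of 0.03 for all genes in both. In prevention 0 of 22 passed for HFD in limma, with a median of -0.11. Il1rn, the interleukin 1 receptor antagonist (-0.34 ± 0.11, adjusted p = 0.0764), and the fibrinogen chain Fgg (-0.66 ± 0.22, 0.0867) had the smallest p. For CMPF against vehicle 0 of 22 passed in either model. Smallest p there went to Hamp, hepcidin (1.26 ± 0.56, adjusted p = 0.989), and the metallothionein Mt2 (1.08 ± 0.50, 1.00) in reversal, and to Lbp, the lipopolysaccharide-binding protein (-0.56 ± 0.38, 0.783), and Il1rn (0.16 ± 0.12, 0.810) in prevention.

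Of 11 negative acute phase proteins, whose plasma level falls in the response, 10 were tested. In reversal 1 of 10 rose and none fell: Serpina6, the corticosteroid-binding globulin, by 1.42 ± 0.27 with CMPF on HFD (adjusted p = 0.0163) and by 1.58 ± 0.27 with HFD (0.0116) against chow. Of all genes, 1.61% were called higher with CMPF on HFD and 2.17% with HFD. The median of the 10 was 0.14 with CMPF on HFD and 0.10 with HFD. In prevention 0 of 10 passed for HFD, with Ahsg, fetuin-A, at -0.50 ± 0.17 (adjusted p = 0.0876) and Ttr, transthyretin, at 0.20 ± 0.07 (0.126). Of 26 signalling genes of the response, 22 were tested, and Il6 was not among them. In prevention with HFD, 1 of 22 rose, against 1.74% of genes called higher: Nfkbiz, a nuclear inhibitor-like cofactor of NF-kB (1.17 ± 0.32, adjusted p = 0.0477). In the same comparison 2 of 22 fell, against 3.83% of genes called lower: Il1rap, the interleukin 1 receptor accessory protein (-0.99 ± 0.17, 0.0121), and the kinase Jak1 (-0.68 ± 0.16, 0.0311). In reversal 0 of 22 passed for HFD, where the kinase Pim1 (0.77 ± 0.26, adjusted p = 0.120) and the glucocorticoid receptor Nr3c1 (0.83 ± 0.31, 0.144) had the smallest p. With CMPF on HFD against chow in reversal 0 of 22 passed as well; Cebpb was at 0.96 ± 0.26 (adjusted p = 0.0720) and the interleukin 6 receptor Il6ra at 1.30 ± 0.36 (0.0768). For CMPF against vehicle 0 of 22 passed: Il1rap was at 0.87 ± 0.19 (adjusted p = 0.252) and Jak1 at 0.36 ± 0.18 (0.667) in prevention, and Il1r1, an interleukin 1 receptor, at 1.47 ± 0.42 (0.551) and Il6ra at 0.95 ± 0.36 (0.874) in reversal.

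Of 15 binding partners and receptors of the 10 proteins, 14 were tested. Of these, 1 fell in prevention with HFD, against 3.83% of genes called lower: Itih2, a heavy chain related to Itih4 (-0.52 ± 0.14, adjusted p = 0.0439). In reversal 0 of 14 passed. The lipocalin 2 receptor Slc22a17 was at -0.22 ± 0.10 with HFD in reversal (adjusted p = 0.218). Scarb1, a lipoprotein receptor that binds serum amyloid A, was at -0.86 ± 0.21 with CMPF on HFD (adjusted p = 0.0577) and at -0.54 ± 0.21 with HFD (0.170) against chow. Cd163, the macrophage receptor of haptoglobin bound to haemoglobin, was at 0.99 ± 0.39 with CMPF on HFD against chow (adjusted p = 0.195).

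**Figure D5:**
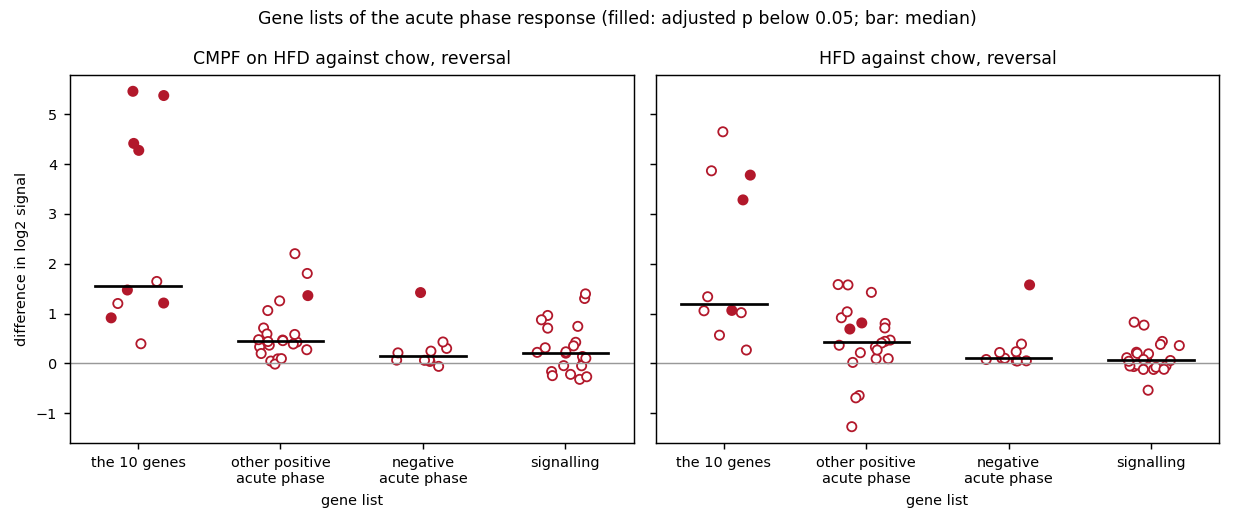
Differences in log2 signal from chow (vertical axis) in the reversal model for the 10 genes and 3 other lists (horizontal axis), with CMPF on HFD left and HFD right; each point is a gene, filled where the adjusted p was below 0.05, and bars are list medians. The 10 genes reach 5.46 with CMPF on HFD, with a median of 1.56, and the other lists have medians between 0.07 and 0.45.

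Saa3 and Lcn2 are also made by macrophages and neutrophils. Of 10 Kupffer cell and macrophage markers, 0 passed in limma for HFD in reversal, against 2.17% of all genes called higher. All 10 were positive there (median 0.81). With CMPF on HFD against chow 0 passed, against 1.61% of all genes, and all 10 markers were positive (median 0.62). Their summed level (log2) was 11.43 to 11.999 in reversal CMPF livers, 11.59 to 11.98 in HFD livers and 10.997 to 11.53 in chow livers. In prevention it was 10.45 to 11.90 in CMPF livers, 10.55 to 12.81 in HFD livers and 10.59 to 12.67 in chow livers. Within prevention, HFD replicate 1 ranked 1 of 9 arrays for both the mean marker level and Saa3. Within reversal, HFD replicate 1 ranked 1 and CMPF replicate 3 ranked 2 for both, but HFD replicate 3 ranked 3 for the markers and 8 for Saa3. Of 12 neutrophil markers 7 were tested, and 0 passed in either comparison with chow in reversal, against the same shares of all genes. Their summed level was 7.94 to 8.54 in reversal CMPF livers, 7.67 to 8.37 in HFD livers and 7.62 to 7.86 in chow livers. In prevention it was 7.76 to 7.88 in CMPF livers, 7.86 to 8.65 in HFD livers and 7.65 to 7.95 in chow livers. In reversal 2 of the 7 were positive with CMPF on HFD against chow (median -0.04) and 3 of the 7 with HFD (median -0.09). S100a8 was 1.77 ± 0.47 above chow with CMPF on HFD (adjusted p = 0.0706) and 1.08 ± 0.47 above chow with HFD (0.198), and S100a9 was 1.24 ± 0.38 above chow with CMPF on HFD (0.108) and 0.78 ± 0.38 above chow with HFD (0.242). S100a8 spanned 3.75 to 6.74 over the 18 arrays. Hepatocyte markers had 0 of 8 past the threshold in either comparison with chow in reversal. At such shares of all genes, lists this short often hold no call. The part of other cell types in the differences of Saa3 and Lcn2 was not tested.

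The 10 genes outside the set whose pattern was most like the mean of the members, by Pearson r over the 17 samples after each model's mean was subtracted, were Serpina10 (0.91), Slc3a1 (0.91), Dpcd (0.90), Snx10 (0.90), Gda (0.89), Tmem176a (0.88), Prg4 (0.88), Hpx (0.88), Fbxo33 (0.88) and Ly6e (0.87). Serpina10 is a protease inhibitor of the coagulation system, Slc3a1 a subunit of an amino acid transporter, and Hpx, hemopexin, the plasma carrier of haem. Among the members, r with their own mean was highest for Saa1 (0.99), Saa2 (0.98) and Lcn2 (0.97) and lowest for Saa3 (0.72). Each member is part of that mean, which raises its r, so these values do not compare with those of the outside genes. These samples share group, array and scaling, so r is a description.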

How the data were processed

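Total liver RNA was measured on 18 Affymetrix arrays. The deposited values are log2 probe set signals that the authors made with Affymetrix Expression Console 1.1 and RMA, per the submitters' processing notes; which arrays were normalised together is not given in the sources used here. Arrays have no read depth, and the number of arrays limits the precision.

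Probe sets whose mean signal fell in the lowest 40% were left out, and the brightest single-symbol probe set stood for a gene. The model, fitted in limma (version 3.58.1; R version 4.3.3), had 6 group means (17 samples, 11 residual degrees of freedom, moderated), with Benjamini-Hochberg adjustment over 13221 genes and a threshold of 0.05; a fit of 22626 probe sets gave the values of second probe sets. Of single-symbol probe sets, 34741 of 34945 had a gene ID in the gene table. The procedure was tested on simulated data. Promoters and alignments were handled with Biopython 1.88. Replicate numbers were not treated as pairs, since the labels do not say that they pair samples. Of 16 same-number correlations 6 were over 0.1, which cannot settle this. All 10 members are named; from other lists, up to 4 members per direction that passed, or else the 2 with the smallest p, in each comparison described. The members and lists were chosen with earlier results of these data known, so they give no independent support to those results. Alternatives were other filters, probe set rules, scaling, sample sets and each array left out.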

Additional observations from a re-analysis of the deposited data

Results flagged for a closer look

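The HFD effect on the dimmer Saa4 probe set differed between the models by 3.46 ± 0.81 (reversal minus prevention, adjusted p = 0.0245 in limma over 22626 probe sets). HFD livers averaged 8.64 ± 0.705 and chow livers 6.26 ± 0.809 in reversal, and HFD livers averaged 7.61 ± 0.760 and chow livers 8.69 ± 0.679 in prevention (SD, n = 3 each). With the 3' to 5' index as a covariate the difference was 1.66 ± 0.62 (adjusted p = 0.2998). With the same covariate, HFD livers were 1.89 ± 0.37 above chow in reversal (0.0206). For the brighter probe set, without the covariate, the difference between the models was 0.35 ± 0.26 (0.369).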

How the results depend on the processing

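The 12 calls of single genes were recomputed 370 times: 297 kept the call, 72 lost it and 1 reversed. Over 3020 recomputed values of single genes, called or not, 22 calls were gained and 75 values that passed in neither setting had the other sign. The reversed value was Saa4 with HFD in prevention, at -0.18 with probe sets averaged per gene (adjusted p = 0.768). For HFD against chow in prevention the count of members called, 1, was 0 with probe sets averaged per gene, with the 3' to 5' index as a covariate, with only the arrays of the 2 groups and without prevention CMPF replicates 2 and 3, and 0 to 1 with 1 array left out. For HFD against chow in reversal the count, 3, was 5 with all 18 arrays as samples, 5 with the replicate block, 0 with only the arrays of the model or of the 2 groups, and 1 to 5 with 1 array left out. It was 1 without reversal HFD replicate 1 and reversal CMPF replicate 3, the arrays of lowest index in that model, left out after seeing the data. For CMPF on HFD against chow in reversal the count, 7, was 2 with only the arrays of the 2 groups, 2 without those same 2 arrays (Saa4 and Orm2), and 2 to 8 with 1 array left out. The count for the difference of HFD effects, 0, was 1 (Saa4) with probe sets averaged per gene. For the averaged HFD effect the count, 1, was 0 with probe sets averaged per gene, 2 (Saa4 and Orm2) with all 18 arrays, with the replicate block and with the index as a covariate, and 1 to 4 with 1 array left out. Fits of fewer arrays have fewer degrees of freedom; otherwise the cause was not tested. The counts for CMPF against vehicle stayed 0 in both models under all alternatives run. The replicate block is reported here only, since same-number correlations ran from -0.34 to 0.44 and the labels do not say that the numbers pair samples.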

Other observations

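Some members of the other lists passed the test of a difference in HFD effect between the models. The effect of HFD, reversal minus prevention, was 0.99 ± 0.23 for Cfb, complement factor B (adjusted p = 0.0255), 1.103 ± 0.31 for the fibrinogen chain Fgg (0.0392) and 0.56 ± 0.15 for Il1rn, the interleukin 1 receptor antagonist (0.0373). These were 3 of 22 other positive acute phase proteins, and none of the 22 differed the other way, beside 8.84% of all genes called higher in this test. Of 22 signalling genes 3 passed, the receptor subunit Il1rap (1.05 ± 0.24, adjusted p = 0.0259), the glucocorticoid receptor Nr3c1 (1.81 ± 0.43, 0.0265) and the kinase Jak1 (0.88 ± 0.23, 0.0319). Ahsg, fetuin-A, passed at 0.89 ± 0.24 (0.0335), as 1 of 10 negative acute phase proteins. Of the partners and receptors 0 of 14 passed. Beside the share of 8.84%, these counts in short lists are a description and no result about the lists. The index was higher in HFD than in chow livers in prevention, at 2.84 and 1.43, and lower in HFD livers in reversal, at 2.62 and 3.15, and its part in these differences was not tested.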
